A study of Mus musculus with 23 samples.

Results

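Pitx1, Isl1, Tbx1, Msx2, Sp6, Satb1, Bcl11b, Barx2 and Irx1 are 9 transcription factor genes known from the dental epithelium, and they were followed by name among the 54347 genes of the deposited count table. Each symbol matched 1 Ensembl identifier. Cells came from the labial cervical loop, the fold of epithelium at the root end of the mouse lower incisor, at postnatal day 2. All mice carried a green fluorescent protein (GFP) reporter driven by the endogenous Sox2 promoter, and sorting by GFP gave a Sox2-positive population, labelled as dental epithelial stem cells, and a Sox2-negative population of whatever else the dissected region held. The RNA libraries were prepared by Smart-seq2, which copies full-length polyadenylated transcripts from small cell numbers. Batch A holds 6 Sox2-negative and 6 Sox2-positive libraries, and batch B, prepared on another day from other mice, holds 4 Sox2-negative and 7 Sox2-positive libraries. The labels give no strain, sex or further treatment, and do not say whether libraries of a batch came from separate mice, so the p-values measure the spread between libraries, which may be technical.

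The incisor of the mouse grows throughout life, and stem cells in its labial cervical loop supply the epithelial layers, including the ameloblasts that secrete enamel. Pitx1, Isl1, Msx2, Barx2 and Irx1 encode homeodomain proteins of different classes, and Tbx1 encodes a T-box protein. Sp6, also called epiprofin, and Bcl11b, also called Ctip2, are zinc-finger factors, while Satb1 encodes a protein that organises chromatin. Mouse mutants of Tbx1, Isl1, Msx2, Sp6 and Bcl11b have abnormal enamel or incisor epithelium. Several of these genes also act outside the tooth: Satb1 and Bcl11b are needed for T-lymphocyte development, Isl1 for motor and sensory neurons, Tbx1 for pharyngeal tissue and head muscle, and Msx2 for skull bone.

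Upstream sequence is shown for Isl1 and Tbx1, which differed most between the populations in both batches, and for Satb1, whose difference turned between the batches. The windows come from the RefSeq table of GRCm38.p6, lie before the annotated start, read 5′ to 3′ on the minus strand, and leave out bases annotated as exon of the gene: chr13:116309690-116309938 for Isl1, chr16:18590672-18590921 for the outer Tbx1 start and chr17:51832673-51832897 for the second Satb1 start. Capitals mark matches, on either strand, to any of 4 short words. The word TAATCC is of the bicoid type that PITX proteins are known to bind. As a general core of homeodomain sites, the letters TAATTA were searched. For factors of the SP family, which bind GC boxes, the search used GGGCGG on both strands. The TATA box of many promoters was searched as TATAAA.
Isl1: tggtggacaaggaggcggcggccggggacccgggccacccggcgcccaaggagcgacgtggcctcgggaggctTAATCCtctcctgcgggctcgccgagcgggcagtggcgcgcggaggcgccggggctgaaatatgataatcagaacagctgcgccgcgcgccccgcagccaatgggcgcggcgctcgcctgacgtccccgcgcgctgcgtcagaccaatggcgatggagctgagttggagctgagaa
Tbx1: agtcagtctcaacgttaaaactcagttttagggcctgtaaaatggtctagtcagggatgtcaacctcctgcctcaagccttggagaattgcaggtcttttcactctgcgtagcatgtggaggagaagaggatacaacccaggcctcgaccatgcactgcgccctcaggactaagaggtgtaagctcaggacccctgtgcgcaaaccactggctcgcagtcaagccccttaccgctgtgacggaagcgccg
Satb1: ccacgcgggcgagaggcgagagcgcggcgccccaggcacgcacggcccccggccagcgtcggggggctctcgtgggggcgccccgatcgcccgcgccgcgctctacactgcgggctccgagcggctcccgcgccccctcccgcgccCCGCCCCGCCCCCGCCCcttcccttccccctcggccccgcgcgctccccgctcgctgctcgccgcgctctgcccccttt

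The Isl1 window held 1 bicoid-type word, 177 bases before the start. The Tbx1 window held none of the 4 words, and the Satb1 window held 3 GC boxes on the opposite strand, of which adjoining matches share 1 base or none. One start was chosen for each gene: the window of the inner Tbx1 start, chr16:18588900-18589149, held 1 GC box, and that of the first Satb1 start, chr17:51833291-51833540, held no match. The other Satb1 windows were annotated exon throughout. Of 32851 upstream windows of 250 bases in the same table, 6.25% held the bicoid-type word, 4.84% the homeodomain core, 32.7% the GC box and 12.4% the TATA box. A match is a description of letters and not of a bound site. RefSeq windows were also matched for Msx2 and Bcl11b, where all or most of the window is annotated exon and is not printed. Pitx1, Sp6, Barx2 and Irx1 had no entry.

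Each library held 2305778 to 9541443 estimated counts in all. Levels are given as counts-per-million (CPM) after TMM scaling, a correction for differences in library composition, and 3 counts corresponded to 0.357 to 1.30 CPM. In Sox2-positive libraries Sox2 averaged 7.27 ± 4.41 CPM (SD, batch A) and 16.4 ± 2.91 CPM (batch B), with at most 10 counts in any Sox2-negative library. All 10 listed epithelial markers, keratins and junction genes among them, were called higher in Sox2-positive cells in each batch. Libraries numbered 1 and 2 of batch B stood apart from the others of their batch in earlier results of these data, and values without them are given beside the factors they moved most. In bulk libraries, fewer cells of a type and less RNA per cell cannot be told apart.

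**Figure D1:**
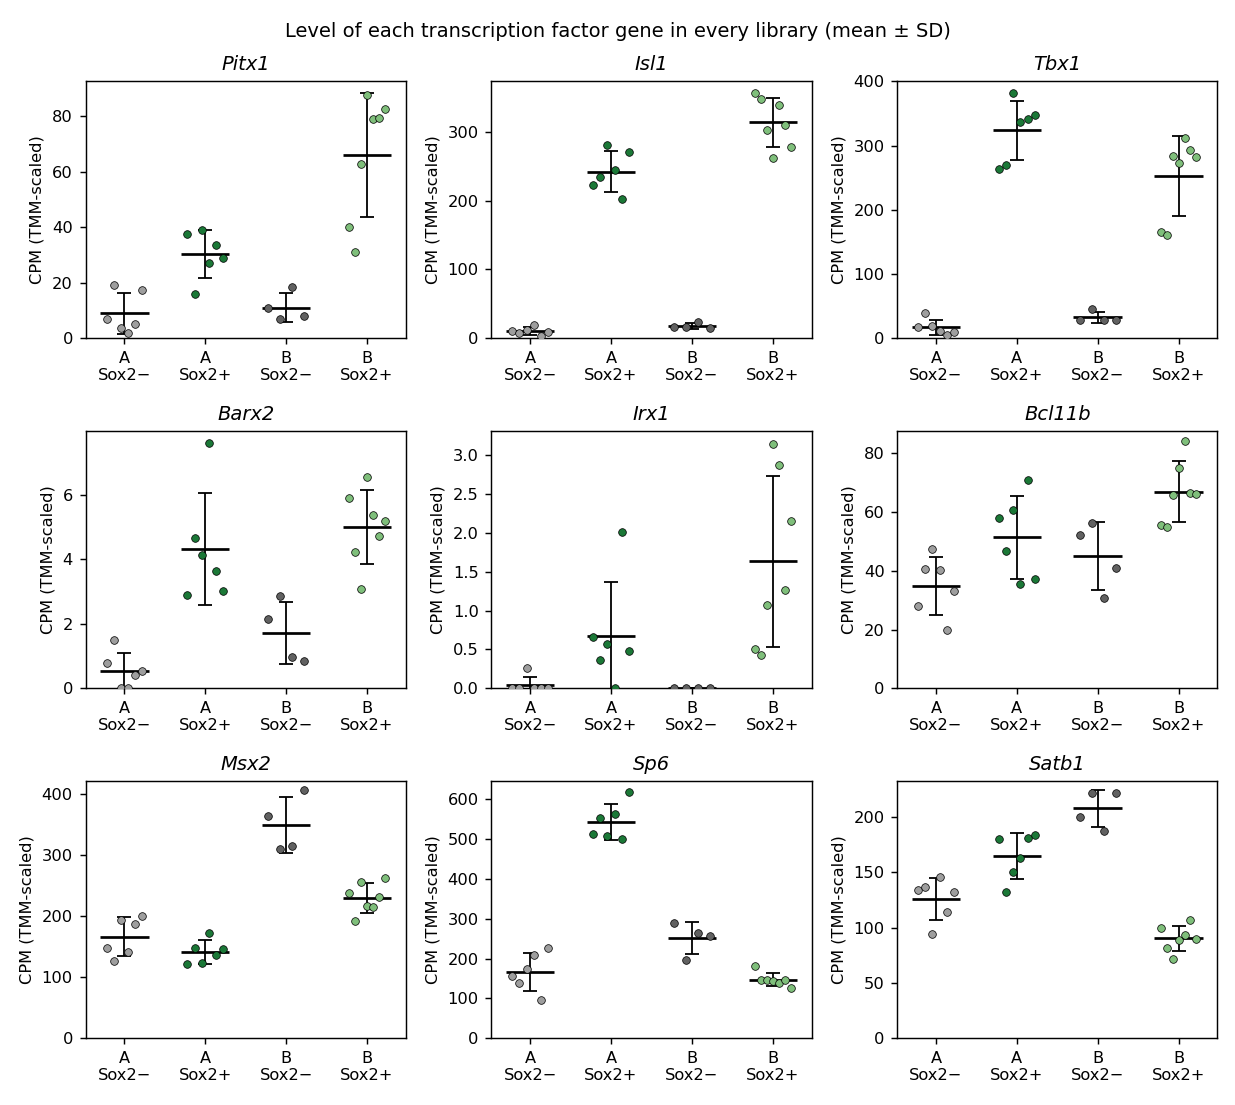
Level of the 9 genes in CPM (TMM-scaled, linear axes from 0) for each library as a point, by batch (A, B) and sorted population (Sox2−, Sox2+), with the group mean as a bar and the SD as a whisker, cut off at 0. Isl1 and Tbx1 are far higher in Sox2-positive libraries, Msx2 is high in all 4 groups, and Sp6 and Satb1 are higher in Sox2-positive libraries of batch A and lower in those of batch B.

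Over both batches, Isl1, Tbx1, Pitx1, Barx2 and Bcl11b were called higher in Sox2-positive cells, 1 gene was called lower (Msx2) and 2 were not called (Sp6 and Satb1), at an adjusted p under 0.05 in edgeR's quasi-likelihood test with batch as a covariate. Among all 17190 genes tested, 57.5% were called, 24.9% higher and 32.5% lower, so that a call by itself is common in this comparison. With Irx1 at its lower bound, the median log2 fold change of the 9 genes was 0.94, against -0.12 over all genes. That median is the bound of Irx1 itself, so it does not describe the other 8. Within the batches, where Irx1 was not tested, the median of the other 8 was 1.73 in batch A and 1.12 in batch B. The medians of all genes there were -0.04 and 0.01. In batch A alone 6 of 8 tested genes were called higher and none lower (background 43.4% called, 19.3% higher and 24.2% lower). Batch B alone had 5 of 8 called higher and 3 lower (background 54.7% called, 27.1% higher and 27.6% lower). Irx1 was too low to be tested within a batch, and in the fit of both batches, where it too was called higher, it passed the filter on low counts through its Sox2-positive libraries only. The library ranges of the 2 populations did not overlap for 4 of the 8 genes in batch A (all genes 28.1%) and for 7 of the 8 in batch B (all genes 38.1%). Barx2 is in each of these counts of genes called higher or not overlapping. It too passed the filter on low counts through its Sox2-positive libraries, so its part in them carries no weight.

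**Figure D2:**
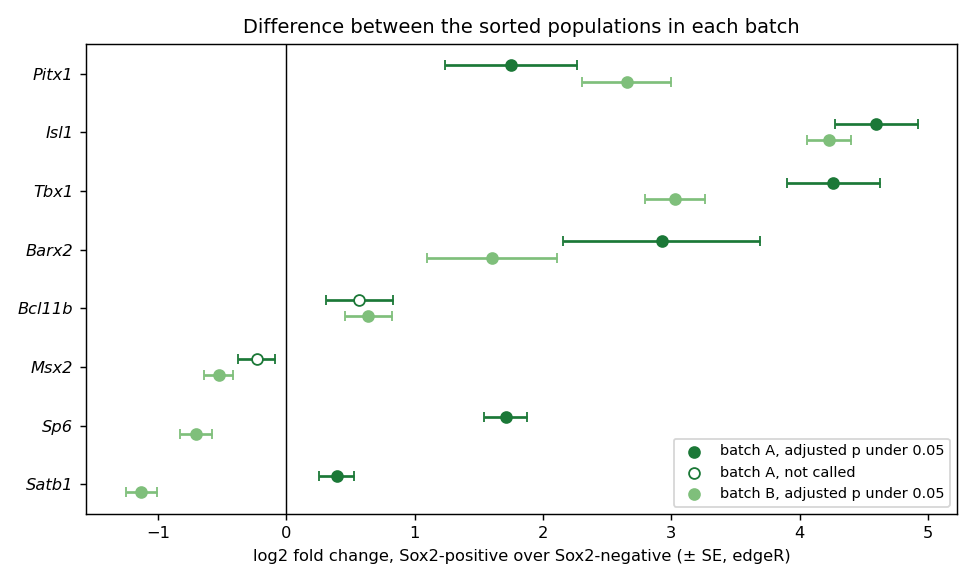
Log2 fold change of Sox2-positive over Sox2-negative libraries for 8 genes in batch A (dark) and batch B (light), with the standard error from edgeR; open points were not called. Isl1, Tbx1, Pitx1 and Barx2 lie to the right of 0 in both batches, while Sp6 and Satb1 lie on opposite sides of 0.

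Isl1 (ENSMUSG00000042258.13, GRCm38 chromosome 13, 116298281 to 116309689, minus strand) had the largest well-measured difference of the 9. It encodes a LIM-homeodomain protein. Batch A Sox2-positive libraries held 202 to 281 CPM (median 239) and Sox2-negative libraries 2.52 to 19.4 CPM (median 10.001). In batch B the 7 Sox2-positive libraries held 262 to 357 CPM (median 311), and the 4 Sox2-negative libraries 16.9, 15.8, 23.5 and 14.3 CPM. The lowest Sox2-positive library was therefore far above the highest Sox2-negative one in each batch. The level was 24.2-fold higher in batch A (log2 fold change 4.60 with SE 0.32, edgeR adjusted p 1.42e-08) and 18.7-fold higher in batch B (log2 fold change 4.23 with SE 0.17, edgeR adjusted p 7.11e-12). How far the batches differed in it was not called (log2 interaction -0.44, SE 0.34, edgeR adjusted p 0.531). Sox2-positive libraries 1 and 2 of batch B, at 357 and 348 CPM, lay above the others of their group (262 to 340 CPM). Without libraries 1 and 2 in both populations the batch B log2 fold change was 4.01 (edgeR adjusted p 7.00e-08).

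Tbx1 (ENSMUSG00000009097.10, GRCm38 chromosome 16, 18580979 to 18590671, minus strand) followed the same pattern. Its protein is a T-box activator, lost in the deletion that causes DiGeorge syndrome. The batch A Sox2-positive range was 264 to 382 CPM (median 339), against 5.04 to 39.5 CPM (median 13.9) in Sox2-negative libraries. Batch B Sox2-positive libraries held 161 to 311 CPM (median 282), and the Sox2-negative ones 27.9, 45.8, 28.9 and 27.7 CPM. Within batch B the Sox2-positive libraries split: those numbered 1 and 2 held 161 and 166 CPM, and the other 5 at least 272 CPM. Tbx1 was 19.2-fold higher in batch A (log2 fold change 4.26 with SE 0.36, edgeR adjusted p 1.22e-07) and 8.16-fold higher in batch B (log2 fold change 3.03 with SE 0.23, edgeR adjusted p 2.20e-08). The log2 interaction of -1.30 missed the threshold (SE 0.42, edgeR adjusted p 0.0585). It depended on the libraries used. Without batch A Sox2-negative library 2, which held 39.5 CPM, the interaction was -1.76 (edgeR adjusted p 0.00131). Without libraries 1 and 2 of batch B in both populations it was -0.92 (edgeR adjusted p 0.390).

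Pitx1 (ENSMUSG00000021506.7, GRCm38 chromosome 13, 55825051 to 55836192, minus strand) was higher in Sox2-positive cells by less. It is a bicoid-class homeodomain factor of the pituitary, hindlimb and first branchial arch. In batch A it held 15.8 to 38.9 CPM (median 31.2) in Sox2-positive and 1.83 to 19.2 CPM (median 5.88) in Sox2-negative libraries, and the ranges overlapped. In batch B it held 31.2 to 87.5 CPM (median 78.9) in Sox2-positive libraries and 10.7, 6.75, 18.4 and 7.99 CPM in Sox2-negative libraries, with no overlap. Libraries 1 and 2 of batch B were again the lowest of their group, at 40.1 and 31.2 CPM, against 62.7 to 87.5 CPM in the other 5. The difference was 3.37-fold in batch A (log2 fold change 1.75 with SE 0.51, edgeR adjusted p 0.0115) and 6.29-fold in batch B (log2 fold change 2.65 with SE 0.35, edgeR adjusted p 8.91e-06). Leaving out both batch B libraries numbered 1 and 2 in each population gave a batch B log2 fold change of 2.59, also called (edgeR adjusted p 6.85e-05). Pitx1 shares 165 exon bases with the antisense gene Gm47071, which stayed at or under 10.6 CPM in every library. Gm47071 exceeded Pitx1 in batch A Sox2-negative libraries 1 (10.6 against 6.72 CPM) and 3 (7.65 against 3.69 CPM). In every other library it lay below Pitx1. No strand setting is given in the sources used here, so reads of such pairs cannot be told apart.

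Barx2 (ENSMUSG00000032033.11, GRCm38 chromosome 9, 31846044 to 31913462, minus strand) was a low-level gene with the same direction. This Bar-class homeodomain factor is known from oral and other surface epithelia and from muscle. Batch A held 2.88 to 7.59 CPM (median 3.88) in Sox2-positive and 0 to 1.496 CPM (median 0.479) in Sox2-negative libraries, the latter resting on at most 7 counts. Batch B held 3.07 to 6.55 CPM (median 5.19) against 2.14, 2.85, 0.978 and 0.850 CPM, and neither batch had an overlap. The difference was 7.59-fold in batch A (log2 fold change 2.93 with SE 0.77, edgeR adjusted p 0.00567) and 3.04-fold in batch B (log2 fold change 1.60 with SE 0.51, edgeR adjusted p 0.0141). Libraries 1 and 2 were the higher of the batch B Sox2-negative libraries, and without those numbers in both populations the batch B log2 fold change was 2.44 (edgeR adjusted p 0.0231). With no filter on low counts the batch B call was lost (edgeR adjusted p 0.0612).

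Irx1 (ENSMUSG00000060969.9, GRCm38 chromosome 13, 71957921 to 71963723, minus strand) was close to the limit of detection. It is an Iroquois homeodomain factor. No Sox2-negative library held more than 1 count, and in batch B all 4 were at 0. Batch A Sox2-positive libraries had 0 to 10 counts, or 0 to 2.01 CPM (median 0.521), and batch B Sox2-positive libraries 3 to 13 counts, or 0.424 to 3.15 CPM (median 1.27). Libraries 1 and 2 of the batch B Sox2-positive group were its lowest, at 0.505 and 0.424 CPM, against at least 1.07 CPM in the others. Setting each Sox2-negative library at 3 counts, Irx1 was at least 3.63-fold higher in batch B, at least 1.92-fold higher over both batches, and batch A gave no bound above equality. Its call over both batches carries no weight, because the filter on low counts let it in through the group where it is high.

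Bcl11b (ENSMUSG00000048251.15, GRCm38 chromosome 12, 107910403 to 108003602, minus strand) differed by less between the populations. Its protein is a zinc-finger repressor. Batch A held 35.3 to 70.9 CPM (median 52.3) in Sox2-positive and 19.7 to 47.5 CPM (median 36.7) in Sox2-negative libraries. The batch B values were 54.9 to 84.3 CPM (median 66.1) and 52.2, 56.4, 30.8 and 41.0 CPM, and the groups overlapped in both batches. In batch B the overlap came from libraries 1 and 2, as the others held 30.8 to 41.0 CPM in Sox2-negative and 66.0 to 84.3 CPM in Sox2-positive cells. The log2 fold change was 0.57 in batch A (SE 0.26, not called, edgeR adjusted p 0.0922) and 0.64 in batch B (SE 0.19, called, edgeR adjusted p 0.00818). DESeq2 called it in batch A as well (adjusted p 0.0462). The log2 interaction was 0.01 with an SE of 0.33. Without libraries 1 and 2 of batch B, the batch B log2 fold change was 1.03 (edgeR adjusted p 0.00205) and the interaction 0.42, which was not called (edgeR adjusted p 0.7103).

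Msx2 (ENSMUSG00000021469.9, GRCm38 chromosome 13, 53466884 to 53473074, minus strand) was abundant in both populations. The protein is a muscle-segment-type homeodomain repressor that acts in enamel organ, hair follicle and skull bone. In batch A the ranges overlapped, with 122 to 173 CPM (median 142) in Sox2-positive and 127 to 201.3 CPM (median 169) in Sox2-negative libraries, and the difference was not called (log2 fold change -0.23 with SE 0.15, edgeR adjusted p 0.216). In batch B the 7 Sox2-positive libraries held 192 to 263 CPM (median 232) and all lay below the 4 Sox2-negative libraries, at 365, 309.9, 316 and 407 CPM (log2 fold change -0.53 with SE 0.12, edgeR adjusted p 0.00110). That is 1.44-fold lower in Sox2-positive cells. Both populations held more Msx2 in batch B than in batch A, with no overlap: the log2 difference was 1.07 in Sox2-negative (edgeR adjusted p 6.52e-06) and 0.70 in Sox2-positive cells (edgeR adjusted p 2.17e-04). The Sox2-negative libraries also carried the listed mesenchymal markers, 10 genes such as Col1a1 and Pdgfra, at a summed 12010.4 to 13724 CPM in batch A and 11366 to 14376 CPM in batch B, against 1390.4 to 1997 CPM and 623 to 708 CPM in Sox2-positive libraries. Bone markers, 7 genes such as Runx2 and Ibsp, summed to 3744 to 6203 CPM and 2116 to 3466 CPM in Sox2-negative libraries and to at most 130.2 CPM in any Sox2-positive library. The part of these cells in the Msx2 level was not tested.

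Sp6 (ENSMUSG00000038560.7, GRCm38 chromosome 11, 97013394 to 97024734, plus strand) changed in opposite directions in the batches. In batch A the 6 Sox2-positive libraries held 499 to 618 CPM (median 532) and the Sox2-negative libraries 96.4 to 225 CPM (median 165). In batch B the 7 Sox2-positive libraries held 127 to 182 CPM (median 146), and the Sox2-negative libraries 290.2, 196, 264 and 257 CPM. Neither batch had an overlap, and the order of the populations was reversed. Sp6 was 3.27-fold higher in Sox2-positive cells of batch A (log2 fold change 1.71 with SE 0.17, edgeR adjusted p 5.87e-07) and 1.63-fold lower in those of batch B (log2 fold change -0.70 with SE 0.12, edgeR adjusted p 1.77e-04). The difference between the batches was called (log2 interaction -2.48, SE 0.21, edgeR adjusted p 1.35e-08). Most of it lay in the Sox2-positive cells, where batch B was 3.68-fold below batch A (log2 fold change -1.88 with SE 0.14, edgeR adjusted p 2.45e-10), against 1.51-fold higher in Sox2-negative cells (log2 fold change 0.60 with SE 0.16, edgeR adjusted p 0.0155).

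Sp6 shares 3329 of its 3841 annotated exon bases with Gm11532, a noncoding gene on the opposite strand, so its counts are uncertain. Gm11532 held 12.8 to 31.8 CPM (median 25.2) and 11.3 to 53.0 CPM (median 22.02) in batch A Sox2-positive and Sox2-negative libraries, and 4.36 to 10.8 CPM (median 5.26) and 59.4, 66.9, 42.6 and 66.3 CPM in batch B. With the counts of both genes added, an alternative chosen after the values were seen, the log2 fold change was 1.55 in batch A and -0.94 in batch B (edgeR adjusted p 1.44e-07 and 4.50e-06), and the interaction -2.56.

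Satb1 (ENSMUSG00000023927.15, GRCm38 chromosome 17, 51736187 to 51833290, minus strand) turned in the same way, by less. Batch A held 132 to 183 CPM (median 172) in Sox2-positive and 93.9 to 146 CPM (median 133) in Sox2-negative libraries, which overlapped. In batch B every Sox2-positive library, with 71.9 to 107 CPM (median 89.5), was below the Sox2-negative libraries, with 200.2, 222, 187 and 221 CPM. It was 1.31-fold higher in Sox2-positive cells of batch A (log2 fold change 0.39 with SE 0.14, edgeR adjusted p 0.0277) and 2.19-fold lower in those of batch B (log2 fold change -1.13 with SE 0.12, edgeR adjusted p 1.15e-06), with a log2 interaction of -1.59 (SE 0.18, edgeR adjusted p 1.70e-06). The batch A call was near the threshold: it was lost in 5 of 12 fits that each left out 1 library (Sox2-negative 3 or 5, or Sox2-positive 1, 5 or 6), where the edgeR adjusted p reached 0.0563. Between the batches, Satb1 in Sox2-positive cells was 1.83-fold lower in batch B (log2 fold change -0.87 with SE 0.12, edgeR adjusted p 1.12e-05) and 1.65-fold higher in Sox2-negative cells (log2 fold change 0.72 with SE 0.14, edgeR adjusted p 8.36e-04), with no overlap of the batches in either population.

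Satb1 and Bcl11b are also expressed in T lymphocytes. The 10 listed T-lymphocyte genes summed to 1.70 to 29.3 CPM over the 23 libraries. Lck, the only one tested in batch B, averaged 8.67 CPM in Sox2-positive and 2.48 CPM in Sox2-negative cells there (log2 fold change 1.87 with SE 0.71, edgeR adjusted p 0.0341), while Cd2 and Cd3e were at 0 in every Sox2-positive library. Glial markers such as Sox10 moved with Sp6 within Sox2-positive cells: the 7 genes summed to 848 to 1080.4 CPM in batch A and 40.1 to 77.8 CPM in batch B, with all 7 called lower in batch B, and to at most 18.6 CPM in Sox2-negative libraries. Skeletal muscle markers moved the other way, from 0 to 11.1 CPM to 170.3 to 323 CPM over 8 genes, with Myf5 and Pax7 at 0 and Acta1 and Myog the highest. Tubb3, which made up most of the neuronal list, averaged 154 ± 24.5 and 39.3 ± 9.72 CPM in Sox2-positive libraries of the 2 batches, while Prph was at 0 in all of them. The 8 genes of that list summed to 145 to 200 CPM and 24.4 to 53.8 CPM there. In Sox2-negative libraries they moved the other way, from 28.2 to 78.2 CPM in batch A to 87.6 to 142 CPM in batch B. The part of these cell types in the levels of Sp6, Satb1, Bcl11b, Isl1 and Tbx1 was not tested.

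The interaction was called for 2 of the 9 genes, both lower in batch B, against 7.04% of all genes (2.82% higher and 4.22% lower). Within Sox2-negative cells 4 of the 9 were called higher in batch B and none lower (background 5.85% and 5.35%), and 2 had no overlap between batches (all genes 8.87%). Msx2 and Satb1 were those 2, with Sp6 and Isl1 the other calls. The Isl1 call was marginal (log2 fold change 0.81 with SE 0.27, edgeR adjusted p 0.0499) and was lost in 21 of 23 fits without 1 library. Within Sox2-positive cells 1 gene was called higher in batch B, Msx2, and 2 lower, Sp6 and Satb1 (background 4.85% and 5.54%). The batches did not overlap for any of these 3 (all genes 8.56%). The remaining 6 were not called there, with log2 differences from -0.36 for Tbx1 to 1.21 for Irx1. Red-cell genes such as the globins took 53611 to 62038 CPM in batch B Sox2-negative libraries and 985 to 1188 CPM in batch A ones. Of the listed epithelial markers 5 of 10 were also called higher in batch B there, at a summed 449 to 555 CPM against 214 to 319 CPM. Endothelial markers were called lower in 8 of 8 genes (216 to 274 CPM against 889 to 1110.4 CPM) and leukocyte markers in 6 of 10 (315 to 404 CPM against 1361 to 1639 CPM). Their part in the levels of the factors was not tested. With scaling to the total count, which those genes enter, the median of all genes in the Sox2-negative comparison moved by -0.15, and the calls of Isl1 and Sp6 were lost (edgeR adjusted p 0.113 and 0.0717). Under that scaling 661 higher and 1388 lower of all genes were called in Sox2-negative cells, against 1005 higher and 919 lower with TMM, and 666 higher and 1214 lower in Sox2-positive cells, against 833 higher and 952 lower. Msx2 and Satb1 kept their directions and calls in both populations under it.

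Levels were compared between the 9 genes per kilobase of annotated exon. The order depended on this length, which for Satb1 was 19.027 kb over 14 transcripts. By CPM without length, Satb1 had rank 4 instead of 6 in batch A Sox2-positive libraries and 5 instead of 7 in batch B ones. Pitx1 had rank 7 instead of 5 in both. In Sox2-negative libraries Satb1 had rank 3 either way. In batch A Sox2-positive libraries Sp6 led with 141 ± 11.7 CPM per kb (SD, n = 6), followed by Tbx1 at 92.0 ± 13.2, Isl1 at 61.2 ± 7.44 and Msx2 at 43.2 ± 5.78 CPM per kb. The ranges of Isl1 and Msx2 overlapped. Pitx1, Satb1 and Bcl11b came next, each overlapping its neighbour, from 11.4 ± 3.21 to 6.34 ± 1.74 CPM per kb, then Barx2 at 2.20 ± 0.883 and Irx1 at 0.259 ± 0.264. In batch B Sox2-positive libraries (n = 7) Isl1, Tbx1 and Msx2 led at 79.4 ± 9.07, 71.9 ± 17.7 and 70.4 ± 7.55 CPM per kb and could not be ordered, since neighbours overlapped. Sp6 followed at 38.3 ± 4.40 CPM per kb. Pitx1, Bcl11b, Satb1, Barx2 and Irx1 then followed without overlap between neighbours, from 24.9 ± 8.38 down to 0.6246 ± 0.421 CPM per kb. Msx2 and Sp6 led both sets of Sox2-negative libraries, at 50.9 ± 9.65 and 43.3 ± 12.3 CPM per kb in batch A (n = 6), where they overlapped, and 107 ± 13.96 and 65.6 ± 10.4 CPM per kb in batch B (n = 4), where they did not. Satb1, at 6.62 ± 0.991 and 10.9 ± 0.887 CPM per kb, and Tbx1, at 4.8001 ± 3.45 and 9.26 ± 2.50 CPM per kb, came after them and overlapped each other in both batches.

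The Sox2-negative level was next set against the Sox2-positive level of the same gene, beside the 10 epithelial markers. The markers stood in Sox2-negative libraries at 0.172% to 21.1% of their Sox2-positive mean in batch A (median 6.26%) and at 0.839% to 25.5% in batch B (median 8.24%). Isl1, at 4.18% and 5.60%, and Tbx1, at 5.22% and 12.9%, lay within the marker range in both batches. Barx2 lay within it in batch A (12.5%) and above it in batch B (34.1%), where the value was 18.4% without libraries 1 and 2 (chosen after the values were seen), beside 0.803% to 21.96% for the markers. Pitx1 lay above it in batch A (29.7%) and within it in batch B (16.6%). Bcl11b (67.8% and 67.4%), Satb1 (76.5% and 230.0%), Sp6 (30.7% and 171%) and Msx2 (118% and 151%) lay above the range of all 10 markers in both batches. These markers are shared by many epithelia and do not tell a dental from another origin. For Msx2, Satb1, Sp6 and Bcl11b the Sox2-negative level was a larger percentage of the Sox2-positive level than for any listed epithelial marker. The percentages compare CPM levels and do not give the share of the RNA that each population held.

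**Figure D3:**
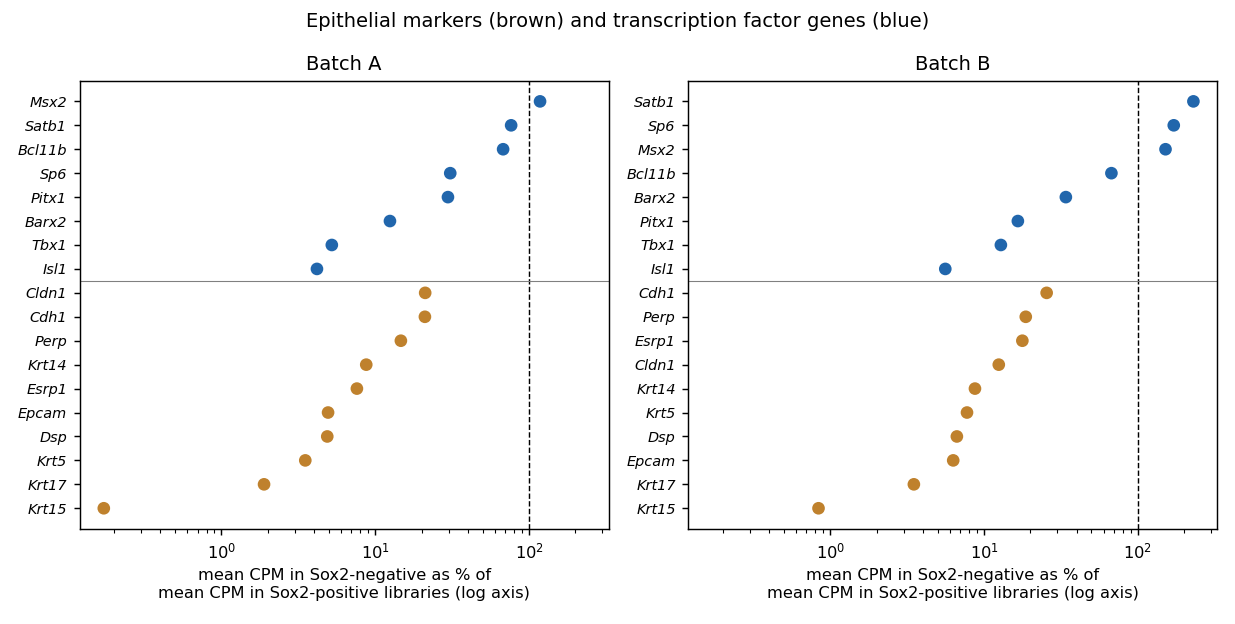
Mean level in Sox2-negative libraries as a percentage of the mean in Sox2-positive libraries (log axis) for 10 epithelial markers (brown) and 8 of the factors (blue), by batch; the dashed line is equality. The markers reach 21.1% in batch A and 25.5% in batch B, and Msx2, Satb1 and Sp6 pass equality in batch B.

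Of 18 related genes of the same families, 12 could be tested, and over both batches 4 were called higher and 7 lower in Sox2-positive cells. Of all genes tested, 24.9% were called higher and 32.5% lower. The median log2 fold change of the 12 was -3.04 (all genes -0.12). Isl2 shared the direction of Isl1, with 20.9 ± 4.92 and 33.8 ± 7.85 CPM in Sox2-positive libraries and at most 15 counts in any Sox2-negative one. Irx2, too, was at 0 in every Sox2-negative library, as Irx1 nearly was. It averaged 1.80 ± 1.49 and 4.56 ± 1.67 CPM in Sox2-positive libraries, at least 5.28-fold higher over both batches. Irx2 passed the filter on low counts through those Sox2-positive libraries only, so a call of it carries no weight. Bcl11a matched Bcl11b in direction (log2 fold change 0.91 with SE 0.12, edgeR adjusted p 2.98e-07).

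Other related genes differed from the factor. Msx1, the family member of dental mesenchyme, averaged 344 ± 38.2 and 414 ± 46.0 CPM in Sox2-negative and 1.90 ± 1.62 and 0.587 ± 1.12 CPM in the Sox2-positive ones (log2 fold change -8.32 with SE 0.42, edgeR adjusted p 2.88e-15), unlike Msx2, which was present in both. Tbx2 (log2 fold change -5.16 with SE 0.48, edgeR adjusted p 6.85e-10) and Tbx3 (log2 fold change -4.25 with SE 0.57, edgeR adjusted p 5.23e-07) were lower in Sox2-positive cells, where Tbx1 was higher. Barx1, a gene of molar mesenchyme, was also lower (log2 fold change -3.18 with SE 0.59, edgeR adjusted p 5.12e-05), where Barx2 was higher. Sp7 (log2 fold change -3.55 with SE 0.35, edgeR adjusted p 1.86e-09), a factor required for osteoblasts, was lower in Sox2-positive cells of both batches, where its relative Sp6 was not called over both. The Sp7 interaction was negative, as for Sp6, and was called at -3.00 (SE 0.30, edgeR adjusted p 2.09e-07). Such a sign was common among the 12 related genes tested: 5 had a called negative interaction and 1 a called positive one.

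**Figure D4:**
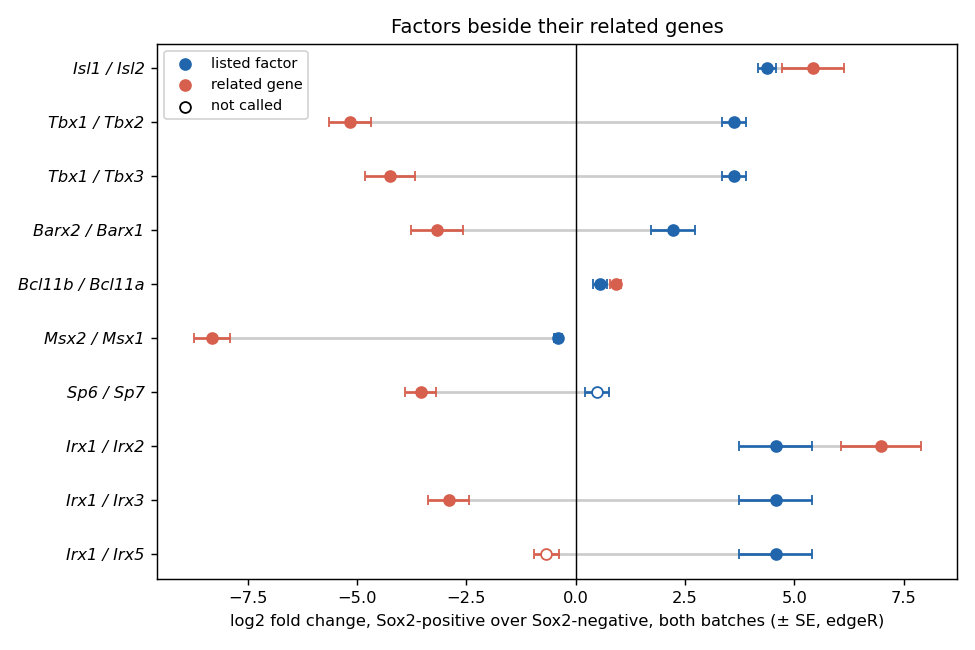
Log2 fold change of Sox2-positive over Sox2-negative cells over both batches for factors (blue) and a related gene (red), with the standard error from edgeR; open points were not called. Isl1 and Isl2, and Bcl11b and Bcl11a, lie on the same side of 0, while Tbx2, Tbx3, Barx1, Msx1 and Sp7 lie at negative values; the fitted values of Irx1 and Irx2 depend on the prior count because Sox2-negative libraries were at or near 0.

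Among 12 factors known from dental or surface epithelium, 8 were called higher, 2 lower and 2 not called over both batches. Of all genes tested, 24.9% were called higher and 32.5% lower. The median log2 fold change of the 12 was 1.88 (all genes -0.12). Of the 12, 1 held at most 3 counts in every Sox2-negative library and passed the filter through Sox2-positive libraries only. A call of that gene carries no weight, and with it at its lower bound the median was 1.87. Trp63, the master factor of stratified epithelia, was higher (log2 fold change 3.26 with SE 0.33, edgeR adjusted p 3.14e-09), as were Grhl2, Runx1 and Dlx2 at log2 fold changes of 3.18, 2.29 and 1.47 (edgeR adjusted p 1.16e-09, 1.25e-09 and 2.00e-10). Lef1, the Wnt pathway effector, was lower (log2 fold change -4.28 with SE 0.51, edgeR adjusted p 7.25e-08), and so was Dlx3 (log2 fold change -1.09 with SE 0.14, edgeR adjusted p 1.28e-07), a factor of enamel and hair. Dlx3 and Tfap2a were the 2 of these 12 with a called interaction, both negative as for Sp6 and Satb1 (log2 -0.91 and -1.51, edgeR adjusted p 0.00640 and 0.0458).

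Genes that several of the factors are known to regulate were taken from 2 further lists. Over both batches, 24.9% of all genes tested were called higher in Sox2-positive cells and 32.5% lower. A negative interaction was called for 4.22% of all genes. Of 7 genes for enamel proteins and proteases, 5 were tested and 4 were called lower in Sox2-positive cells over both batches, with Odam higher, and 4 had a called negative interaction (Amelx, Ambn, Enam and Mmp20). No gene of this list was called higher in batch A or batch B alone (background 19.3% and 27.1% higher). Odam was at 0 in every batch A Sox2-negative library. Amelx, the main enamel matrix gene, averaged 270.3 ± 20.7 CPM (batch A) and 6.76 ± 1.63 CPM (batch B) in Sox2-positive libraries, and 655 ± 66.9 and 448 ± 31.8 CPM in Sox2-negative libraries. Sp6 and Satb1 fell from batch A to batch B within Sox2-positive cells together with the enamel genes, by less than Amelx (log2 -1.88 and -0.87 against -5.30), while Msx2 rose (log2 0.70). Of 10 signalling genes, 9 were tested, with 3 higher (Shh, Fgf9 and Fst) and 5 lower (Bmp2, Bmp4, Notum, Ptch1 and Gli1) over both batches. In batch A alone 3 of 8 tested were called higher and 5 lower (background 19.3% and 24.2%). In batch B alone 1 of 8, Fst, was called higher and 5 lower (background 27.1% and 27.6%). Shh, the hedgehog ligand of dental epithelium, averaged 102 ± 20.7 and 18.2 ± 7.66 CPM in batch A Sox2-positive and Sox2-negative libraries and 32.9 ± 7.11 and 47.8 ± 21.0 CPM in batch B, with a called interaction (log2 interaction -3.01 with SE 0.40, edgeR adjusted p 1.07e-05). Fst, the activin antagonist follistatin, was higher in Sox2-positive cells in both batches (6.13-fold and 8.62-fold, edgeR adjusted p 0.00471 and 3.83e-06).

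The genes most like each factor were named by Pearson's r of log2 CPM over the 23 libraries, among genes with a mean of at least 5 CPM. These r values are descriptions over libraries that share batch and population, and have no test. Isl1 was closest to Epcam (r = 0.988), Cdh6 (r = 0.984) and Pthlh (r = 0.984), and 279 genes passed 0.9. Epcam is an epithelial adhesion gene and Pthlh encodes parathyroid hormone-related protein. For Tbx1 the genes were Ntrk2 (r = 0.969), Cyp26a1 (r = 0.968) and Ezr (r = 0.967), with 239 genes past 0.9; Cyp26a1 degrades retinoic acid. Barx2 came closest to Fam84b (r = 0.929), Plekhh1 (r = 0.926) and Ntrk2 (r = 0.925), Pitx1 to Mest (r = 0.916), B3gnt8 (r = 0.912) and Ly6h (r = 0.911), and Irx1 to Tcf7l2 (r = 0.870), Pkp2 (r = 0.852) and Rprm (r = 0.848). Sp6 was closest to Ptprz1 (r = 0.902), Fbln5 (r = 0.889) and Cldn19 (r = 0.886). Fbln5, an elastic fibre gene, averaged 209 CPM (batch A) and 27.1 CPM (batch B) among the Sox2-positive libraries. Satb1 was closest to Col22a1 (r = 0.839), Schip1 (r = 0.835) and Cdca7 (r = 0.822), and Bcl11b to Mxi1 (r = 0.821), Arhgap24 (r = 0.821) and Cish (r = 0.820). Msx2 was closest to the ribosomal protein genes Rps13 (r = 0.886), Rps2-ps10 (r = 0.882) and Rps3a1 (r = 0.862), of which Rps2-ps10 is annotated as a pseudogene, whose reads may belong to Rps2. By Spearman's rho the 3 closest genes were others for Isl1, Tbx1 and Barx2, and for the remaining factors 1 or 2 of the 3 genes named were kept.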

How the data were processed

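Gene-level RNA sequencing values came from 23 libraries of sorted mouse incisor cells. Values were deposited as estimated counts (expected counts) per gene, not scaled to a common depth; per the submitters' processing notes FastQC, Trimmomatic and Salmon were used with the build mm10, while versions, the annotation and the summing to genes are not given in the sources used here. They were rounded to whole numbers. Identifiers were matched without version to GENCODE M21 on GRCm38 (54094, 99.5%); exon lengths and positions came from the same annotation. Libraries of a group always differed by more than counting noise (chi-square over degrees of freedom at least 5.08).

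Groups followed the titles. Tests used edgeR 4.0.16 in R 4.3.3: TMM scaling, filterByExpr (minimum count 10), quasi-likelihood F test, two-sided, Benjamini-Hochberg adjustment over all genes tested, calls at an adjusted p under 0.05. Batch was a covariate in the fit of both batches; each batch was also fitted alone, and a model of 4 group means gave the interaction (batch B difference minus batch A difference) and the batch differences. A standard error is the log2 fold change divided by the square root of F. Alternatives were DESeq2 1.42.0, other scalings and filters, a replicate block, and left-out libraries. The fits were tested on simulated data. The factors, lists and alternatives were chosen with earlier results of these data known, and genes were named by a rule: the 9 factors, fixed lists, and the 3 genes of highest r to each. Means carry SDs over libraries; floors of 3 counts cover counting error only. ATAC-seq data of the study were not used here, and some related genes are not reported here by name.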

Additional observations from a re-analysis of the deposited data

Results flagged for a closer look

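Of 35 combinations of gene and group, 4 had 1 library far from the others of its group by Dixon's criterion. For normally distributed values chance gives about 1 in 20. Counts near 0, as for Irx1, are not so distributed, so the 4 cannot be set against that rate. Tbx1 was highest in batch B Sox2-negative library 2, at 45.8 CPM against 28.9 CPM in the next. Sp6 was highest in batch B Sox2-positive library 1, at 182 CPM against 147 CPM. Irx1 was highest in batch A Sox2-positive library 5, at 2.01 CPM against 0.664 CPM, and in batch A Sox2-negative library 3, at 0.264 CPM, where the others were at 0 and the value rests on 1 count.

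The difference between the sorted populations itself differed between the batches for Sp6 (log2 interaction -2.48, edgeR adjusted p 1.35e-08) and Satb1 (log2 interaction -1.59, edgeR adjusted p 1.70e-06). In both genes the Sox2-positive libraries of batch B were below all Sox2-negative libraries of that batch. The batches differ in day and mice, which cannot be told apart.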

How the results depend on the processing

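No factor with a called difference changed sign under any alternative run. Calls at an adjusted p under 0.05 that depended on the setting were few. DESeq2 also called Bcl11b in batch A, the Tbx1 interaction and Pitx1 between batches within Sox2-positive cells (adjusted p 0.0462, 0.0493 and 0.0416). With no filter on low counts, Sp6 over both batches, the Tbx1 interaction, Tbx1 between batches in Sox2-negative cells and Pitx1 between batches in Sox2-positive cells were called as well (edgeR adjusted p 0.0236, 0.00317, 0.00455 and 0.0232). The Isl1 call between batches in Sox2-negative cells was lost with RLE factors and with a filter at a mean of 10 counts (edgeR adjusted p 0.0668 and 0.0555). Without batch B libraries 1 and 2, the calls of Isl1 and Sp6 between batches in Sox2-negative cells were lost (edgeR adjusted p 0.165 and 0.0679), and Sp6 over both batches was called higher at 0.81 (edgeR adjusted p 0.0257). Genes called without those libraries numbered 481 for the interaction, 754 between batches in Sox2-negative and 1159 in Sox2-positive cells, against 1210, 1924 and 1785, with fewer libraries in the fit. Leaving out 1 library at a time turned the uncalled Bcl11b interaction (log2 -0.14 to 0.15) and the uncalled batch difference of Pitx1 in Sox2-negative cells (-0.07 to 0.66, with -0.0742 without batch B library 3), and took that of Irx1 to 0 (from -1.62, 0 without batch A library 3). Sp6 over both batches was called without batch B Sox2-negative library 1, 3 or 4 (edgeR adjusted p down to 0.0349), Satb1 over both without batch A Sox2-negative library 3 or 5 (down to 0.0286), Tbx1 between batches in Sox2-negative cells without batch A library 2 (9.21e-04), Pitx1 between batches in Sox2-positive cells in 3 fits (down to 0.0370), and Sp6 between batches in Sox2-negative cells was not called without batch B library 1 (0.0590). With total-count scaling the median of all genes moved by 0.12 in the fit of both batches. The labels do not say whether libraries of the same number belong together. Their deviations from the group means correlated at -0.0212 to 0.0444, which cannot settle it. In batch B, Sox2-negative libraries 1 and 2 correlated with Sox2-positive libraries 1 and 2 at 0.0400 to 0.0602. All other pairs of that batch were at or under 0.0300. With the replicate number as a block, 557 genes had a called interaction, Bcl11b and Barx2 were not called in batch B (edgeR adjusted p 0.0831 and 0.0805), and the uncalled Bcl11b interaction was -0.0549. Irx1 and the Sox2-negative values of Barx2 lie near the limit of this depth.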
